A study of Mus musculus with 15 samples.

Results

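A set of 10 genes of IgA-secreting plasma cells and of epithelial IgA transport was followed in colon RNA of mice with and without NEMO in the intestinal epithelium. The genes are *Jchain*, *Mzb1*, *Derl3*, *Sdc1*, *Tnfrsf17*, *Pou2af1*, *Irf4*, *Eaf2*, *Fcrl5* and *Pigr*, chosen by symbol. All 10 had 1 probe set each, among 19494 named genes on 22142 probe sets. The arrays held 15 mice aged 11 weeks, 1 array per mouse and 5 mice per genotype. NEMO IEC-KO *Ripk1* S166A/S166A mice, called S166A mice below, lack NEMO in intestinal epithelial cells and carry, in every cell of the body, a RIPK1 in which the autophosphorylated serine is replaced by alanine (S166A). NEMO IEC-KO mice lack NEMO in the same cells and have wild-type *Ripk1*. *Nemo* FL mice carry the floxed *Nemo* allele without the deletion and served as controls. The deletion was driven by *Villin*-Cre, so it concerns the epithelium only, while the RNA came from whole colon tissue. The comparison of NEMO IEC-KO with *Nemo* FL mice asks what the loss of epithelial NEMO does to these genes. That of S166A with NEMO IEC-KO mice asks what the mutation changes in mice without epithelial NEMO. That of S166A with *Nemo* FL mice asks what remains of the effect of NEMO loss when this serine cannot be phosphorylated.

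Plasma cells are the antibody-secreting end stage of B cells. In the colon most of them lie in the lamina propria and make IgA, which is joined into dimers by the J chain (*Jchain*). The polymeric immunoglobulin receptor (*Pigr*) on the base of epithelial cells binds the J chain-containing IgA, carries it through the cell and releases it into the lumen with a piece of the receptor attached. To make antibody at this rate, plasma cells enlarge their endoplasmic reticulum, which draws on chaperones such as MZB1 and on the degradation of misfolded proteins, in which Derlin-3 (*Derl3*) takes part. In RNA of whole tissue, fewer cells of a type and less RNA per cell cannot be told apart.

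Promoters are shown for the secreted J chain, for 2 plasma cell genes that changed with it and for the epithelial receptor, because these genes carry the contrast described below. Each window runs from 250 bases before to 50 bases after the annotated start (RefSeq, GRCm38.p6), 5′ to 3′ on the gene's strand. Capitals mark matches to the NF-kB motif or to GACGTG, the core bound by XBP1 and ATF6, both searched on both strands and with no overlap between them.
*Jchain*, chr5:88527848-88528147, minus strand: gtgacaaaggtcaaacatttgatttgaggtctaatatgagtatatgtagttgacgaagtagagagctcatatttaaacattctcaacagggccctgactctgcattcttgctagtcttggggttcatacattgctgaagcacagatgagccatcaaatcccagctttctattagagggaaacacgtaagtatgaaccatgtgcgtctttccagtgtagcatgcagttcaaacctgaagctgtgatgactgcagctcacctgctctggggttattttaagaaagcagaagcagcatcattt
*Derl3*, chr10:75893148-75893447, plus strand: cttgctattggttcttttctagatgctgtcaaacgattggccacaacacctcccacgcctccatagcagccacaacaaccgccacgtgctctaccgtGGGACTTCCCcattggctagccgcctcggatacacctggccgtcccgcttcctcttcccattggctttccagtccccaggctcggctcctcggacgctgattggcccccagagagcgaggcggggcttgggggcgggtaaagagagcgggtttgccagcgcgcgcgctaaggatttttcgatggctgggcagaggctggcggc
*Pou2af1*, chr9:51213440-51213739, plus strand: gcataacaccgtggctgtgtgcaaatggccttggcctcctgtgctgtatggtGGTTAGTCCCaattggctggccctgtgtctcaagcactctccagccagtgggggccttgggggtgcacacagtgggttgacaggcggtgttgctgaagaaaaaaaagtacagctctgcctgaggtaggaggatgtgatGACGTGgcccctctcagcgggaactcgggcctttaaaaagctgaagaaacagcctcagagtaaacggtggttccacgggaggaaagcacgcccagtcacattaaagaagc
*Pigr*, chr1:130826434-130826733, plus strand: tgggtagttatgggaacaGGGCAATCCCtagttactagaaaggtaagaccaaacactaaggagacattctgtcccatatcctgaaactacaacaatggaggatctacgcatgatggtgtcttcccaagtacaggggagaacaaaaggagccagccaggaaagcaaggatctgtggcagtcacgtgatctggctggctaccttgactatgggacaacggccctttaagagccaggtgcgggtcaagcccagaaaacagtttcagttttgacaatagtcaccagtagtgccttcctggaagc
The *Jchain* window held no match to any of the 5 motifs searched. The *Derl3* window matched the NF-kB motif at position -153 from the start, and the *Pou2af1* window matched it at -198, on the minus strand, and the XBP1 and ATF6 core at -60. The *Pigr* window matched the NF-kB motif at -232 on the minus strand. A gene can have several windows, and the 9 of 10 genes for which windows were used had 11. Of these 11 windows, 5 matched the NF-kB motif (*Pigr*, *Pou2af1*, *Derl3*, *Sdc1* and *Irf4*), a motif in 20.7% of all 32851 windows. The GACGTG core matched in 3 of the 11 (*Fcrl5*, *Pou2af1* and *Eaf2*) and in 6.38% of all windows. The interferon response motif matched in 1 of the 11 (*Tnfrsf17*) and in 3.44% of all windows. Neither the octamer ATGCAAAT, found in 1.74% of all windows, nor the Ets-IRF composite motif, found in 2.72%, matched in a window of these genes. A match is a stretch of letters and not a measured binding site.

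*Ikbkg*, the gene of NEMO, was used to check which mice lack epithelial NEMO. It cannot separate S166A from NEMO IEC-KO mice, which both lack epithelial NEMO (difference 0.12, adjusted p = 0.531 by limma). Its log2 values were 5.24, 5.25, 5.30, 5.43 and 5.23 in S166A mice 1 to 5, and 5.24, 5.15, 4.85, 5.30 and 5.28 in NEMO IEC-KO mice 11, 12, 13, 15 and 18, against 6.18, 6.55, 6.38, 6.50 and 6.28 in *Nemo* FL mice 6 to 10. Mouse 10 is a wild type by its title and a NEMO IEC-KO mouse by its genotype label. It was placed by its title. Its *Ikbkg* value of 6.28 lay within the range of the other *Nemo* FL mice and above every NEMO IEC-KO mouse (4.85 to 5.30). Fits below that count it as NEMO IEC-KO follow its genotype label and not its *Ikbkg* value. Y-chromosome genes marked all 5 S166A mice as male, with 2 males among the 5 NEMO IEC-KO mice and 1 among the 5 *Nemo* FL mice (mouse 10). The arrays of mice 1 and 2 had a narrower spread of values than the others, with an interquartile range of 3.06 and 3.01 log2 units. All values below are log2, a reading taken from their range of 1.69 to 13.59, and every fold rests on that reading.

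In NEMO IEC-KO colon 5 of the 9 plasma cell genes rose and the IgA receptor fell relative to *Nemo* FL colon. *Jchain*, *Mzb1*, *Derl3*, *Pou2af1* and *Irf4* were higher and *Pigr* was lower, 6 genes of 10, by limma at an adjusted p under 0.05, where 11.6% of all probe sets were higher and 13.8% lower. In *Jchain*, *Mzb1*, *Derl3*, *Pou2af1* and *Pigr* the values of both groups did not overlap, as was the case in 18.2% of all probe sets. The median log2 difference of the 10 genes was 0.40, and that of all probe sets 0.01. In S166A mice the same 5 plasma cell genes were lower than in NEMO IEC-KO mice and none of the 10 was higher, where 9.9% of all probe sets were lower and 9.33% higher. *Jchain*, *Mzb1* and *Derl3* did not overlap between these groups, against 13.6% of all probe sets, and the median difference was -0.55 with 0.02 over all probe sets. Both comparisons share the NEMO IEC-KO mice, so a high value in these mice enters both. Counting mouse 10 as a NEMO IEC-KO mouse, no gene of the 10 was called against *Nemo* FL and 2 (*Jchain* and *Mzb1*) against S166A. Calls also fell over all 22142 probe sets, to 1807 and 1434 in these fits. The main fits called 2564 higher and 3064 lower in the first comparison, and 2066 higher and 2192 lower in the second. With mouse 10 left out, 5 of the 10 genes were higher and 1 lower against *Nemo* FL.

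**Figure D1:**
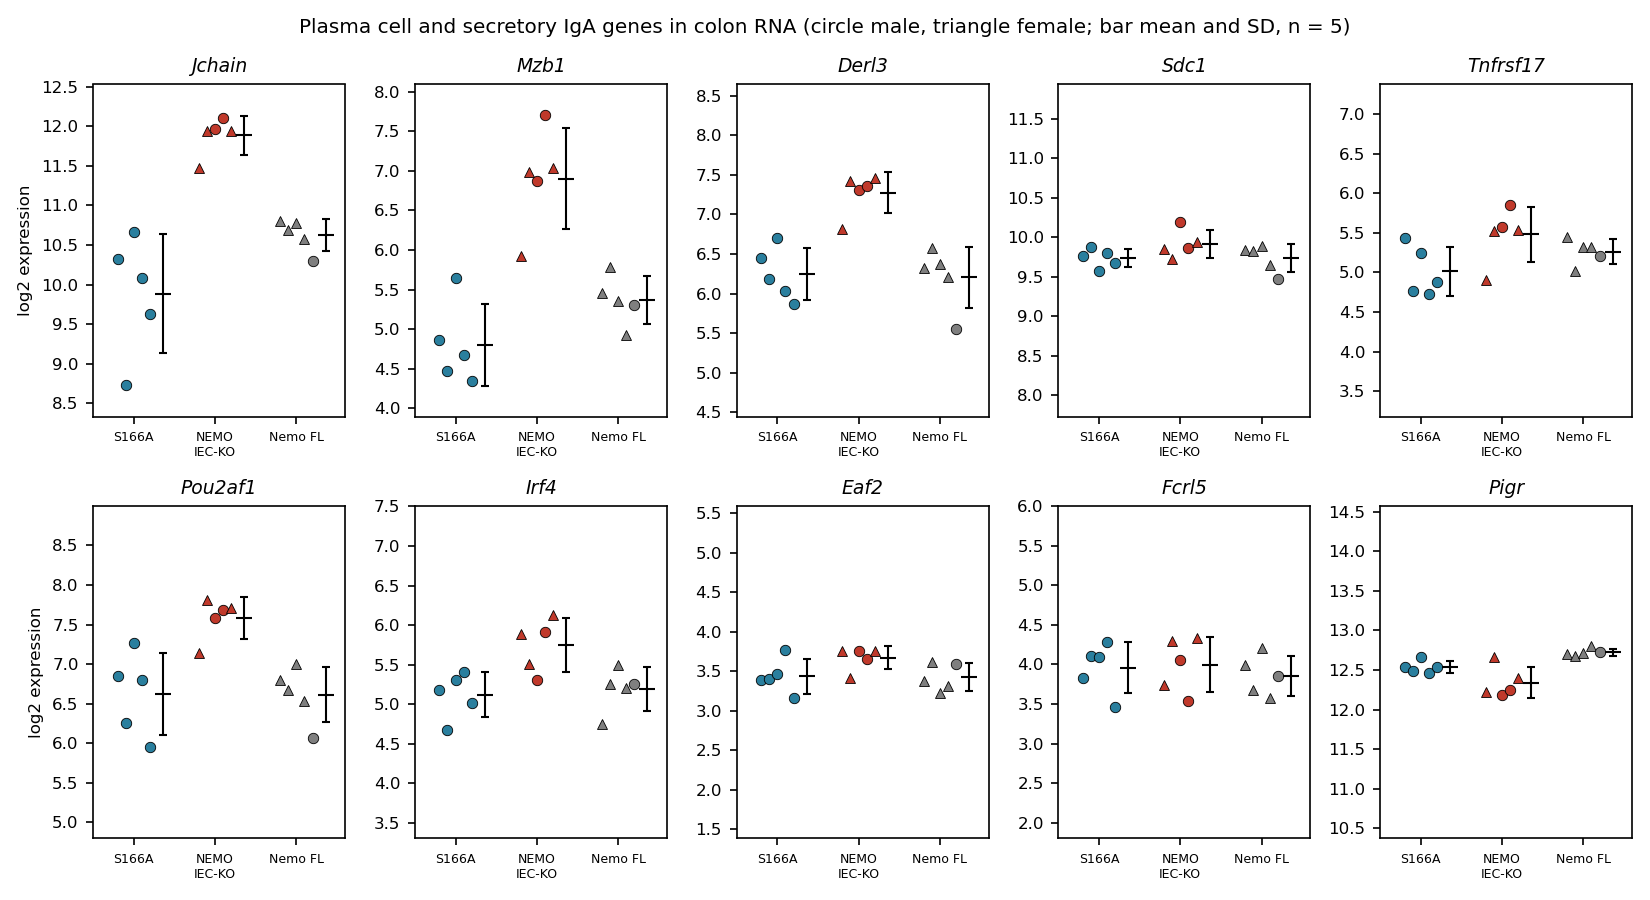
Log2 expression (y axis, each panel spanning the same range of log2 units) of the 10 genes in each mouse, by genotype on the x axis, circles for males, triangles for females and bars for the mean and SD of 5 mice. For *Jchain* all NEMO IEC-KO mice lie at 11.47 or above, over every other mouse. For *Pigr* the NEMO IEC-KO mice have the lowest mean, and the highest group is *Nemo* FL with 12.68 to 12.80.

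*Jchain*, the chain that joins IgA into dimers, had log2 values of 10.32, 8.73, 10.67, 10.08 and 9.63 in S166A mice 1 to 5. It was 11.47, 11.94, 11.96, 12.11 and 11.94 in NEMO IEC-KO mice 11, 12, 13, 15 and 18, against 10.80, 10.69, 10.78, 10.58 and 10.30 in *Nemo* FL mice 6 to 10. Every NEMO IEC-KO mouse was above every mouse of the other genotypes, and S166A mouse 2 stood far below all others. The difference between NEMO IEC-KO and *Nemo* FL colon was 1.25 (SE 0.14, 95% interval 0.95 to 1.55), or 2.38-fold, with an adjusted p of 1.26e-05 by limma. It was 1.07 among females (adjusted p = 0.000757 by limma), and 0.91 with mouse 10 counted as NEMO IEC-KO (adjusted p = 0.0705). In S166A colon *Jchain* was 3.99-fold lower than in NEMO IEC-KO colon, a difference of -2.0 (SE 0.273, interval -2.58 to -1.41, adjusted p = 0.000166 by limma). This difference was -1.76 without mice 1 and 2 (adjusted p = 0.000625), -2.15 between the males alone (adjusted p = 0.00298) and -1.73 when mouse 10 was a NEMO IEC-KO mouse (adjusted p = 0.0205, all by limma).

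*Mzb1*, an endoplasmic reticulum protein that helps to assemble and secrete antibodies, showed the largest differences among the 10 genes in both comparisons. S166A mice 1 to 5 had log2 values of 4.86, 4.47, 5.65, 4.67 and 4.34. NEMO IEC-KO mice 11, 12, 13, 15 and 18 had 5.92, 6.98, 6.87, 7.70 and 7.04, against 5.46, 5.78, 5.35, 4.93 and 5.31 in *Nemo* FL mice 6 to 10. Mouse 11, the lowest NEMO IEC-KO mouse, lay just above the highest *Nemo* FL mouse, and S166A mouse 3 alone of its group came near it. *Mzb1* was 2.9-fold higher in NEMO IEC-KO than *Nemo* FL colon, a difference of 1.54 (SE 0.248, interval 1.01 to 2.06, adjusted p = 0.000342 by limma), which became 1.26 (adjusted p = 0.0564) if mouse 10 was taken as NEMO IEC-KO. It was 4.3-fold lower in S166A than NEMO IEC-KO colon, with a difference of -2.10 (SE 0.284, adjusted p = 0.000147 by limma), and of -2.49 between males alone (adjusted p = 0.000412).

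*Derl3*, which takes part in the removal of misfolded proteins from the endoplasmic reticulum, was 6.45, 6.19, 6.70, 6.03 and 5.87 in S166A mice 1 to 5. It was 6.82, 7.42, 7.31, 7.36 and 7.46 in NEMO IEC-KO mice 11, 12, 13, 15 and 18, against 6.32, 6.57, 6.37, 6.21 and 5.55 in *Nemo* FL mice 6 to 10. Apart from mouse 11 the NEMO IEC-KO mice lay within 7.31 and 7.46, and no mouse of another genotype reached mouse 11. NEMO IEC-KO exceeded *Nemo* FL colon by 1.07 (SE 0.179, adjusted p = 0.000429 by limma), or 2.1-fold. The difference of S166A from NEMO IEC-KO colon was -1.03 (SE 0.169, adjusted p = 0.000679 by limma), or 2.04-fold lower. Mouse 10 had the lowest *Derl3* of all 15 mice, and as a NEMO IEC-KO mouse it left differences of 0.62 from *Nemo* FL (adjusted p = 0.229 by limma) and of -0.74 between S166A and NEMO IEC-KO colon (adjusted p = 0.143).

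Nuclear regulators are encoded by *Pou2af1*, *Irf4* and *Eaf2*. *Pou2af1*, a coactivator that octamer-binding factors use in B cells and plasma cells, was 6.85, 6.25, 7.26, 6.80 and 5.95 in S166A mice 1 to 5. It was 7.14, 7.81, 7.58, 7.68 and 7.71 in NEMO IEC-KO mice 11, 12, 13, 15 and 18, against 6.80, 6.67, 7.00, 6.53 and 6.07 in *Nemo* FL mice 6 to 10. NEMO IEC-KO and *Nemo* FL values did not overlap, while S166A mouse 3 lay above NEMO IEC-KO mouse 11. The difference was 0.97 for NEMO IEC-KO minus *Nemo* FL (SE 0.17, adjusted p = 0.000656 by limma) and -0.96 for S166A minus NEMO IEC-KO (SE 0.213, adjusted p = 0.00534 by limma). Moving mouse 10 to the NEMO IEC-KO mice made these values 0.58 (adjusted p = 0.218 by limma) and -0.71 (adjusted p = 0.164).

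*Irf4*, a transcription factor that plasma cells need and that activated T cells also use, changed less. It was 5.18, 4.68, 5.31, 5.41 and 5.02 in S166A mice 1 to 5. NEMO IEC-KO mice 11, 12, 13, 15 and 18 had 5.89, 5.51, 5.30, 5.91 and 6.13, against 4.75, 5.26, 5.50, 5.20 and 5.25 in *Nemo* FL mice 6 to 10. NEMO IEC-KO mouse 13 lay within the range of both other genotypes. The difference from *Nemo* FL was 0.56 (SE 0.17, adjusted p = 0.0246 by limma), and it was not called without *Nemo* FL mouse 6 (adjusted p = 0.0632), without NEMO IEC-KO mouse 11, 15 or 18 (adjusted p = 0.0528, 0.0585 and 0.0576) or with mouse 10 as NEMO IEC-KO (0.49, adjusted p = 0.137). For S166A minus NEMO IEC-KO it was -0.63 (SE 0.175, adjusted p = 0.02 by limma), and this was not called between males alone (-0.48, adjusted p = 0.159), with a sex term (-0.48, adjusted p = 0.168), without mice 1 and 2 (-0.50, adjusted p = 0.114), without mouse 2 alone (adjusted p = 0.059), without NEMO IEC-KO mouse 15 (adjusted p = 0.0512) or with mouse 10 as NEMO IEC-KO (-0.54, adjusted p = 0.0855). *Eaf2*, a transcription elongation factor partner found in plasma cells, ranged from 3.16 to 3.77 in S166A, from 3.42 to 3.76 in NEMO IEC-KO and from 3.23 to 3.62 in *Nemo* FL mice. It passed the test in no comparison, and NEMO IEC-KO minus *Nemo* FL gave 0.25 (interval -0.01 to 0.50, adjusted p = 0.15 by limma). *Eaf2* lay within the range of 2.28 to 3.97 that Y-chromosome genes showed in females, that is, at the level of transcripts that are absent.

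None of the 3 genes of surface proteins passed the test in either comparison. *Tnfrsf17* encodes BCMA, the receptor on plasma cells for the survival factors APRIL and BAFF. It was 5.44, 4.77, 5.24, 4.73 and 4.88 in S166A mice 1 to 5. NEMO IEC-KO mice 11, 12, 13, 15 and 18 had 4.91, 5.52, 5.58, 5.85 and 5.54, against 5.45, 5.02, 5.32, 5.32 and 5.21 in *Nemo* FL mice 6 to 10. NEMO IEC-KO mouse 11 was below all 5 *Nemo* FL mice, while the other 4 were above them. *Tnfrsf17* did not pass the test for NEMO IEC-KO minus *Nemo* FL (0.21, interval -0.12 to 0.54, adjusted p = 0.352 by limma) or for S166A minus NEMO IEC-KO (-0.47, interval -0.85 to -0.08, adjusted p = 0.0849). The second difference passed without NEMO IEC-KO mouse 11 (-0.61, adjusted p = 0.0194 by limma), without mouse 1 (-0.57, adjusted p = 0.042) and between males alone (-0.70, adjusted p = 0.0369), and also with a sex term (-0.70, adjusted p = 0.046), with all 3 groups in 1 fit (-0.47, adjusted p = 0.0477) and after quantile normalization (-0.53, adjusted p = 0.0452). *Sdc1* encodes CD138, the usual surface marker of plasma cells, which gut epithelial cells also carry. Its values lay between 9.57 and 9.88 in S166A mice, between 9.73 and 10.19 in NEMO IEC-KO mice and between 9.47 and 9.89 in *Nemo* FL mice. NEMO IEC-KO minus *Nemo* FL was 0.18 (interval -0.09 to 0.44, adjusted p = 0.331 by limma) and S166A minus NEMO IEC-KO was -0.18 (adjusted p = 0.353), and all 3 groups overlapped. *Fcrl5*, an Fc receptor-like protein of B-lineage cells, had values from 3.46 to 4.34 over the 15 mice, with overlapping groups and differences of 0.14 and -0.04 in the same comparisons (adjusted p = 0.597 and 0.908 by limma). Its means of 3.96 in S166A, 4.00 in NEMO IEC-KO and 3.86 in *Nemo* FL mice lay near the upper end of the range of 2.28 to 3.97 of absent transcripts. A change in *Fcrl5* could therefore have been missed.

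The receptor that exports IgA went the other way. *Pigr* was 12.54, 12.49, 12.66, 12.46 and 12.54 in S166A mice 1 to 5. It was 12.22, 12.66, 12.18, 12.25 and 12.40 in NEMO IEC-KO mice 11, 12, 13, 15 and 18, against 12.70, 12.68, 12.71, 12.80 and 12.73 in *Nemo* FL mice 6 to 10. The *Nemo* FL mice lay within 12.68 and 12.80, above every other mouse, and S166A mice lay above 4 of the 5 NEMO IEC-KO mice. *Pigr* was 1.3-fold lower in NEMO IEC-KO than *Nemo* FL colon, a difference of -0.38 (SE 0.115, interval -0.63 to -0.14, adjusted p = 0.0234 by limma). It was not called among females alone (-0.30, adjusted p = 0.16), with mouse 10 as NEMO IEC-KO (-0.32, adjusted p = 0.15), without *Nemo* FL mouse 9 (adjusted p = 0.059) or without NEMO IEC-KO mouse 11, 13 or 15 (adjusted p = 0.0529, 0.0552 and 0.0546). The difference of 0.20 between S166A and NEMO IEC-KO colon (interval -0.06 to 0.46) did not pass (adjusted p = 0.298 by limma). Markers of the epithelium, where *Pigr* is made, had a mean log2 level of 10.89 to 11.12 in S166A mice, 10.89 to 10.99 in NEMO IEC-KO mice and 10.82 to 11.04 in *Nemo* FL mice. Of 13 such markers, 1 (*Cldn7*, a tight junction claudin, 0.41, adjusted p = 0.0187 by limma) was called higher in NEMO IEC-KO than *Nemo* FL colon and none was called lower. The differences of the 13 markers had a median of 0.02 and ran from -0.40, which was not called, to 0.41.

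**Figure D2:**
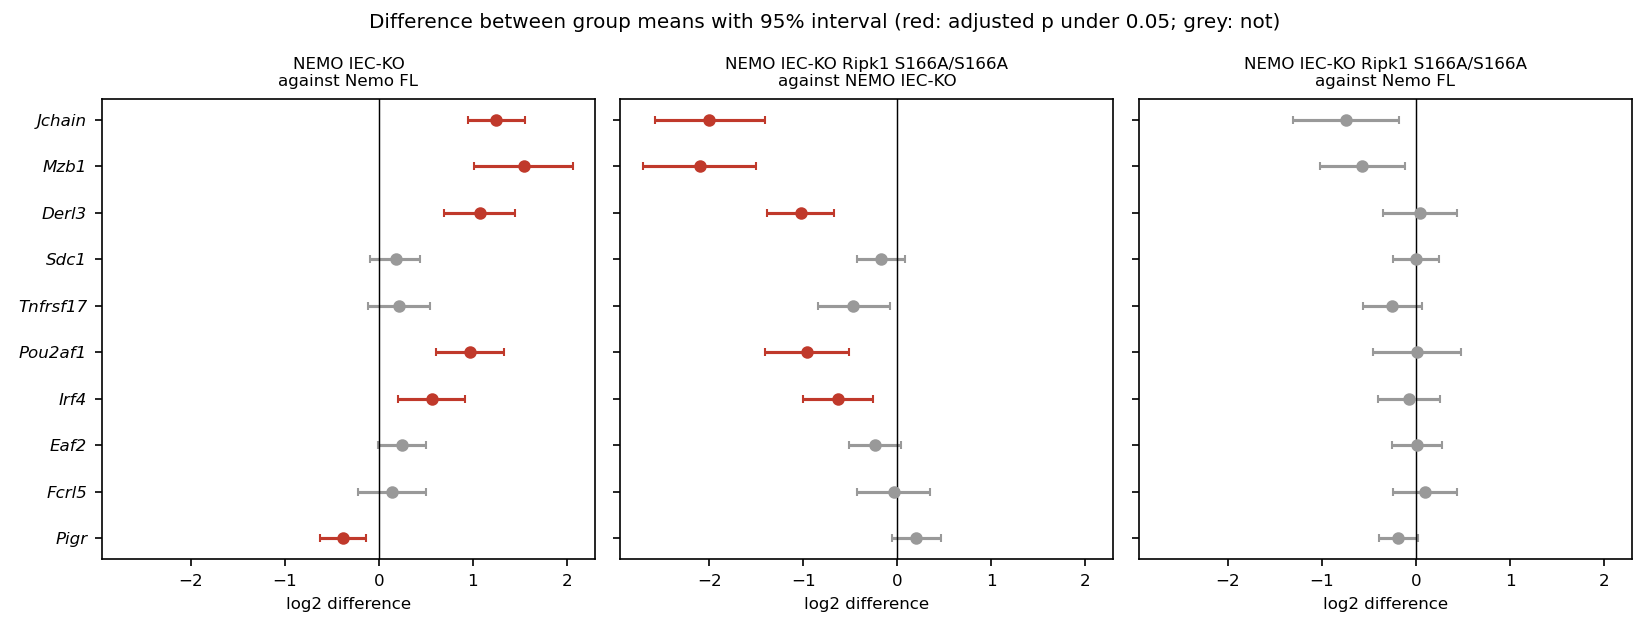
Log2 difference between group means (x axis) with its 95% interval for the 10 genes in the 3 comparisons, red where limma's adjusted p was under 0.05 and grey elsewhere. *Jchain* and *Mzb1* lie at 1.25 and 1.54 in the comparison of NEMO IEC-KO with *Nemo* FL mice and at -2.0 and -2.10 in that of S166A with NEMO IEC-KO mice, and no gene is red in the comparison of S166A with *Nemo* FL mice.

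None of the 10 genes was called between S166A and *Nemo* FL mice, where limma called 0.0542% of all probe sets. *Jchain* and *Mzb1*, 2 of the 10, had an unadjusted p under 0.05 by limma. The share of all probe sets under that unadjusted threshold was not determined, so this count has no background to be set against. *Jchain* averaged 9.89 ± 0.749 in S166A and 10.63 ± 0.204 in *Nemo* FL mice (SD over 5 mice each). The difference was -0.74, with an interval of -1.31 to -0.18 and an adjusted p of 0.414 by limma. Without mice 1 and 2, it was -0.50 (adjusted p = 0.717 by limma). *Mzb1* averaged 4.80 ± 0.518 in S166A and 5.37 ± 0.304 in *Nemo* FL mice. The difference was -0.57, with an interval of -1.02 to -0.12 and an adjusted p of 0.414 by limma. S166A mouse 3 lay within the *Nemo* FL range for both genes, and mice 2, 4 and 5 lay below it for both. *Pigr* was the only gene of the 10 whose values did not overlap between these groups, as in 1.65% of all probe sets, with 12.66 as the highest S166A value and 12.68 as the lowest *Nemo* FL value. Its difference was -0.19 (interval -0.39 to 0.02, adjusted p = 0.507 by limma). The other 7 genes differed by between -0.25 for *Tnfrsf17* and 0.10 for *Fcrl5*, and the median over the 10 genes was -0.04 with 0.01 over all probe sets. With 5 males among the S166A mice and 4 females among the *Nemo* FL mice, mouse 10 alone separates sex from genotype in this comparison, and the part of sex in these values was not tested.

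Within a genotype the same mice tended to be high or low for several of these genes. NEMO IEC-KO mouse 11 was the lowest of its group for 5 genes (*Jchain*, *Mzb1*, *Derl3*, *Tnfrsf17* and *Pou2af1*), and it also had the lowest mean of the neutrophil markers in its group, 5.94 against 7.01 to 8.78 in the other 4. S166A mouse 3 was the highest of its group for *Jchain*, *Mzb1*, *Derl3*, *Pou2af1* and *Pigr*, and mouse 5 the lowest for *Mzb1*, *Derl3*, *Pou2af1*, *Eaf2* and *Fcrl5*. *Nemo* FL mouse 10 was the lowest of its group for *Jchain*, *Derl3*, *Sdc1* and *Pou2af1*. As a description over the 15 mice, after subtraction of each group's mean, *Jchain* correlated with *Pou2af1* at r = 0.79, with *Mzb1* at 0.65, with *Tnfrsf17* at 0.62, with *Derl3* at 0.58 and with *Irf4* at 0.40. It correlated with *Pigr* at 0.23 and with *Sdc1* at -0.11. The named probe sets nearest to *Jchain* over all arrays were *Tmem229b* (0.973), *Panx1* (0.948), *B2m* (0.883), *Relb* (0.881) and *Ddost* (0.877), and those nearest to *Pigr* were *Slc44a4* (0.857), *Myo1d* (0.844), *Ap3b1* (0.822), *Bach1* (0.817) and *Dgka* (0.814). *Ddost* encodes a subunit of the complex that attaches sugars to proteins entering the endoplasmic reticulum, *B2m* the light chain of MHC class I, and *Slc44a4* an epithelial choline transporter. The values share arrays and their scaling, and mouse 2, whose *Jchain* was far below its group, weighs heavily in the *Jchain* profile.

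Of 14 other genes of plasma cells, 8 were called higher in NEMO IEC-KO than *Nemo* FL colon and 1 lower, with a median difference of 0.63, and 7 were lower and 1 higher in S166A than NEMO IEC-KO colon, with a median of -0.56. *Prdm1*, the repressor that installs the plasma cell programme and that some T cells and epithelial cells also express, was 5.14, 3.99, 5.86, 4.76 and 4.58 in S166A mice 1 to 5. It was 5.87, 6.50, 6.28, 6.94 and 6.91 in NEMO IEC-KO mice 11, 12, 13, 15 and 18, against 4.43, 4.35, 4.59, 4.99 and 3.84 in *Nemo* FL mice 6 to 10. All NEMO IEC-KO mice were above all others, with S166A mouse 3 just below NEMO IEC-KO mouse 11. *Prdm1* differed by 2.06 for NEMO IEC-KO minus *Nemo* FL (SE 0.22, adjusted p = 8.07e-06 by limma) and by -1.63 for S166A minus NEMO IEC-KO (adjusted p = 0.00106). *Slamf7*, a surface receptor of plasma cells and other leukocytes, gave 1.25 (adjusted p = 0.000249 by limma) and -1.16, and *Fkbp11*, a chaperone of secretory cells, 1.14 (adjusted p = 0.000375) and -1.26 (adjusted p = 0.00139). *Tnfrsf13b*, the BAFF and APRIL receptor TACI, was 0.82 higher in the first comparison (adjusted p = 0.00714 by limma), and *Sec11c*, a catalytic subunit of signal peptidase, differed by -0.93 in the second (adjusted p = 0.000376). The gene that ran the other way in both was *Cpeb4*, a translation regulator, with -0.61 and 0.62. *Xbp1*, the transcription factor of the secretory programme, averaged 10.64 ± 0.206 in NEMO IEC-KO and 10.39 ± 0.145 in *Nemo* FL mice (SD, n = 5 each), a difference that did not pass (0.25, interval -0.02 to 0.52, adjusted p = 0.162 by limma). When mouse 10 was moved to the NEMO IEC-KO mice, 1 of the 14 genes was higher and 1 lower in the first comparison and 3 were lower and 1 higher in the second.

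The machinery that moves and folds secreted proteins is shared by plasma cells with goblet and other secretory cells. Of 38 such genes in NEMO IEC-KO mice, 24 were higher and none lower than in *Nemo* FL mice, with a median of 0.48, and 25 were lower and none higher in S166A than NEMO IEC-KO colon, with a median of -0.56. *Creld2*, a protein induced by endoplasmic reticulum stress, differed by 1.11 in the first comparison (adjusted p = 0.000105 by limma) and by -1.17 in the second (adjusted p = 0.000253). *Sdf2l1*, a cofactor of the chaperone BiP, differed by 0.99 and -0.98, and *Ssr4*, a subunit of the translocon-associated complex, by 0.86 and -0.77. The disulfide isomerase *P4hb* was 0.79 higher in the first (adjusted p = 0.00126 by limma), and *Pdia6*, of the same kind, and the BiP cochaperone *Dnajb11* differed by -0.94 and -0.93 in the second (adjusted p = 0.00112 and 0.00027). None of the 38 was called between S166A and *Nemo* FL mice. Taking mouse 10 as NEMO IEC-KO left 9 and 12 of the 38 called in these directions, and leaving out mice 1 and 2 left 15 in the second.

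Signals for IgA switching and plasma cell survival were mixed. Of 18 genes, 8 were called higher in NEMO IEC-KO than *Nemo* FL colon and 1 lower, with a median of 0.45, a count that mouse 10 as NEMO IEC-KO brought down to 1 and 0. *Il5ra*, the receptor chain for IL-5, was 1.85 higher (adjusted p = 5.39e-05 by limma), and *Tnfrsf1a*, the receptor for TNF, 1.15 higher (adjusted p = 2.55e-05). *Il6*, a cytokine that supports plasma cells, was 2.56, 2.57, 3.06, 2.59 and 2.58 in S166A mice 1 to 5. NEMO IEC-KO mice 11, 12, 13, 15 and 18 had 2.89, 2.89, 5.12, 5.37 and 5.98, against 2.92, 3.17, 2.51, 2.49 and 2.59 in *Nemo* FL mice 6 to 10. NEMO IEC-KO mice 11 and 12 were at the level of the other genotypes for *Il6*, and their value of 2.89 lay within the range of absent transcripts given below. Their *Jchain* was above that of all S166A and *Nemo* FL mice. A link between *Il6* and *Jchain* was not tested. The difference of *Il6* was 1.72 for NEMO IEC-KO minus *Nemo* FL (adjusted p = 0.0182 by limma) and -1.78 for S166A minus NEMO IEC-KO (adjusted p = 0.0181). The means of *Il6* and *Il5ra* outside NEMO IEC-KO mice, 2.67 and 3.58 in S166A and 2.73 and 3.20 in *Nemo* FL mice, lay within the range of 2.28 to 3.97 of absent transcripts, so the sizes of their differences are not well determined. *Tnfsf13b*, the gene of BAFF, was 0.71 higher in NEMO IEC-KO than *Nemo* FL colon (adjusted p = 0.00879 by limma). The lower gene was *Aldh1a1*, an enzyme that makes retinoic acid (-2.28, adjusted p = 1.79e-05 by limma). Between S166A and NEMO IEC-KO colon 4 genes were lower, among them *Il6*, *Il5ra* (-1.47) and *Tnfrsf1a* (-0.79), and *Aldh1a1* was higher (1.86, adjusted p = 0.000303 by limma). *Tnfsf13b* differed by -0.54 in that comparison (adjusted p = 0.0563 by limma), and no gene of the 18 was called in it with mouse 10 as NEMO IEC-KO.

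Among 11 genes of plasma cell homing, 5 were called higher in NEMO IEC-KO than *Nemo* FL colon and 1 lower, and 4 were lower and 1 higher in S166A than NEMO IEC-KO colon. None of them was called in either when mouse 10 was taken as NEMO IEC-KO, and 2 were lower and none higher in the second without mice 1 and 2. *Madcam1*, the vessel adhesion molecule that gut-homing lymphocytes bind, was 6.16, 5.86, 6.19, 6.13 and 5.61 in S166A mice 1 to 5. It was 6.51, 7.22, 7.60, 7.46 and 7.16 in NEMO IEC-KO mice 11, 12, 13, 15 and 18, against 5.99, 5.91, 6.44, 5.23 and 5.42 in *Nemo* FL mice 6 to 10. All NEMO IEC-KO mice lay above all others, with differences of 1.39 from *Nemo* FL (adjusted p = 0.000376 by limma) and of -1.20 for S166A minus NEMO IEC-KO (adjusted p = 0.000462). The vessel adhesion molecule *Vcam1* (0.98 and -0.89) and the chemokine receptor *Cxcr4* (0.82 and -0.51) moved likewise, the gut-homing chemokine receptor *Ccr9* differed by -0.79 for S166A minus NEMO IEC-KO (adjusted p = 0.0286 by limma), and the integrin chain *Itgb7*, part of the MAdCAM-1 receptor, was 0.63 higher in NEMO IEC-KO than *Nemo* FL colon. The gene that ran the other way was *Ccl28*, an epithelial chemokine that attracts IgA plasma cells to the colon. It was 9.84, 9.86, 9.85, 9.55 and 9.75 in S166A mice 1 to 5. NEMO IEC-KO mice 11, 12, 13, 15 and 18 had 9.36, 9.59, 9.38, 9.32 and 9.29, against 9.84, 9.94, 9.79, 9.95 and 10.15 in *Nemo* FL mice 6 to 10. As for *Pigr*, every NEMO IEC-KO mouse was below every *Nemo* FL mouse, and the difference was -0.55 (SE 0.111, adjusted p = 0.00198 by limma). In S166A colon *Ccl28* was 0.38 higher than in NEMO IEC-KO colon (adjusted p = 0.0306 by limma). Its receptor *Ccr10* differed by 0.10 for NEMO IEC-KO minus *Nemo* FL (interval -0.26 to 0.47, adjusted p = 0.711 by limma).

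Regulators of *Pigr* and of epithelial IgA transport were more often higher than lower where *Pigr* was lower. The RNA came from whole colon, so whether these genes changed in epithelial or in other cells was not determined. Of 20 genes, 8 were called higher in NEMO IEC-KO than *Nemo* FL colon and 1 lower, with a median of 0.27, and 2 were higher and 5 lower in S166A than NEMO IEC-KO colon, with a median of -0.22. Counting mouse 10 among the NEMO IEC-KO mice gave 4 higher and 1 lower, and 1 higher and 3 lower. *Tnfrsf1b*, a TNF receptor, was 1.51 higher (adjusted p = 1.1e-06 by limma), the IL-4 receptor chain *Il4ra* 1.38 higher (adjusted p = 3.24e-06), the adaptor *Myd88* 1.12 higher (adjusted p = 0.000115) and *Irf1*, a factor that activates the receptor gene in human cells, 0.99 higher (adjusted p = 9.06e-05) in NEMO IEC-KO than *Nemo* FL colon. The 1 lower gene was *Hnf4a*, an epithelial transcription factor, with -0.65, and it was 0.73 higher in S166A than NEMO IEC-KO colon.

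Most markers of mature B cells are lost when these cells become plasma cells. Of 14 markers, 2 (*Cd37* and *Fcrla*) were higher and none lower in NEMO IEC-KO than *Nemo* FL colon, with a median of 0.07, and 4 were higher and none lower in S166A than NEMO IEC-KO colon, with a median of 0.44. The first count was 0 among females alone and with mouse 10 as NEMO IEC-KO, and the second was 1 without mice 1 and 2. Of all probe sets, 11.6% were higher in the first comparison and 9.33% in the second. *Blk*, a kinase of B cells (0.89, adjusted p = 0.0035 by limma), the scaffold *Bank1* (0.89, adjusted p = 0.0383), *Pax5*, which holds B cells before the plasma cell stage (0.67, adjusted p = 0.0302), and the IgE receptor *Fcer2a* (0.47, adjusted p = 0.0228) were higher in S166A mice while *Jchain* and *Mzb1* were lower. *Cd79a*, a chain of the B cell receptor that plasma cells keep in part, was 8.24, 7.55, 8.08, 8.63 and 7.72 in S166A mice 1 to 5, against 8.01, 8.34, 7.97, 7.66 and 8.33 in NEMO IEC-KO mice 11, 12, 13, 15 and 18. These groups overlapped, with a difference of -0.02 (interval -0.43 to 0.39, adjusted p = 0.963 by limma). In *Nemo* FL mice 6 to 10 *Cd79a* was 7.87, 7.69, 8.04, 5.95 and 6.92. NEMO IEC-KO minus *Nemo* FL was 0.77 and was not called (interval 0.11 to 1.43, adjusted p = 0.0819 by limma). The mean log2 level of the B cell list was 6.25 to 7.18 in S166A, 5.80 to 6.52 in NEMO IEC-KO and 5.47 to 6.52 in *Nemo* FL mice. None of the 14 markers was called for S166A minus *Nemo* FL, where their median was 0.60 and that of all probe sets 0.01. Of 10 germinal centre and follicle genes none was called for NEMO IEC-KO minus *Nemo* FL and 1, *Fcer2a*, for S166A minus NEMO IEC-KO, and the largest uncalled differences in the first were 0.78 for the chemokine *Cxcl13* (adjusted p = 0.0584 by limma) and -0.46 for the complement receptor *Cr2* (adjusted p = 0.141).

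**Figure D3:**
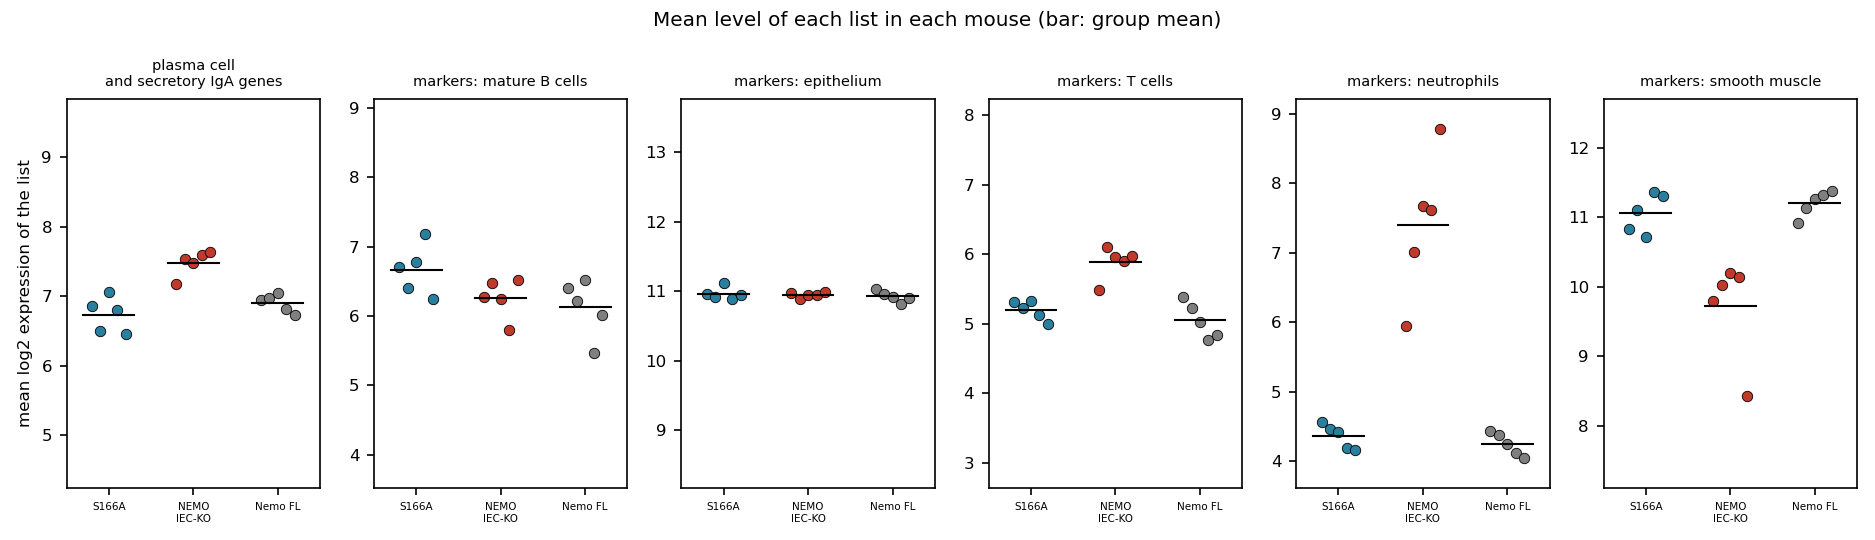
Mean log2 level (y axis, each panel spanning the same range of log2 units) of the 10 genes and of 5 marker lists in each mouse, with bars for the group means. Epithelial markers stay within 10.82 and 11.12 in all 15 mice, neutrophil markers reach 5.94 to 8.78 in NEMO IEC-KO mice alone, and smooth muscle markers are lowest there.

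Markers of other cells of the tissue also differed between the genotypes, in both directions. All 8 neutrophil markers were higher in NEMO IEC-KO than *Nemo* FL colon, and their mean log2 level was 4.16 to 4.57 in S166A, 5.94 to 8.78 in NEMO IEC-KO and 4.05 to 4.44 in *Nemo* FL mice. T cell markers were higher for 5 of 9 genes, with levels of 4.99 to 5.32, 5.49 to 6.10 and 4.77 to 5.38 in the same 3 groups, and 5 of 10 macrophage and dendritic cell markers were higher and 1 lower, with levels of 5.99 to 6.46, 6.28 to 6.88 and 5.98 to 6.38. All 8 smooth muscle markers were lower, with levels of 10.71 to 11.36 in S166A, 8.43 to 10.20 in NEMO IEC-KO and 10.92 to 11.38 in *Nemo* FL mice. All 8 neutrophil markers were lower and all 8 smooth muscle markers higher in S166A than NEMO IEC-KO colon. With mouse 10 as NEMO IEC-KO, 3 neutrophil, no T cell and 1 macrophage or dendritic cell marker were higher and 1 smooth muscle marker was lower than in *Nemo* FL colon, and 4 neutrophil markers were lower and 1 smooth muscle marker was higher in S166A than NEMO IEC-KO colon. The part of these shifts in the differences of *Jchain*, *Mzb1*, *Derl3*, *Pou2af1* and *Pigr* was not tested.

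**Figure D4:**
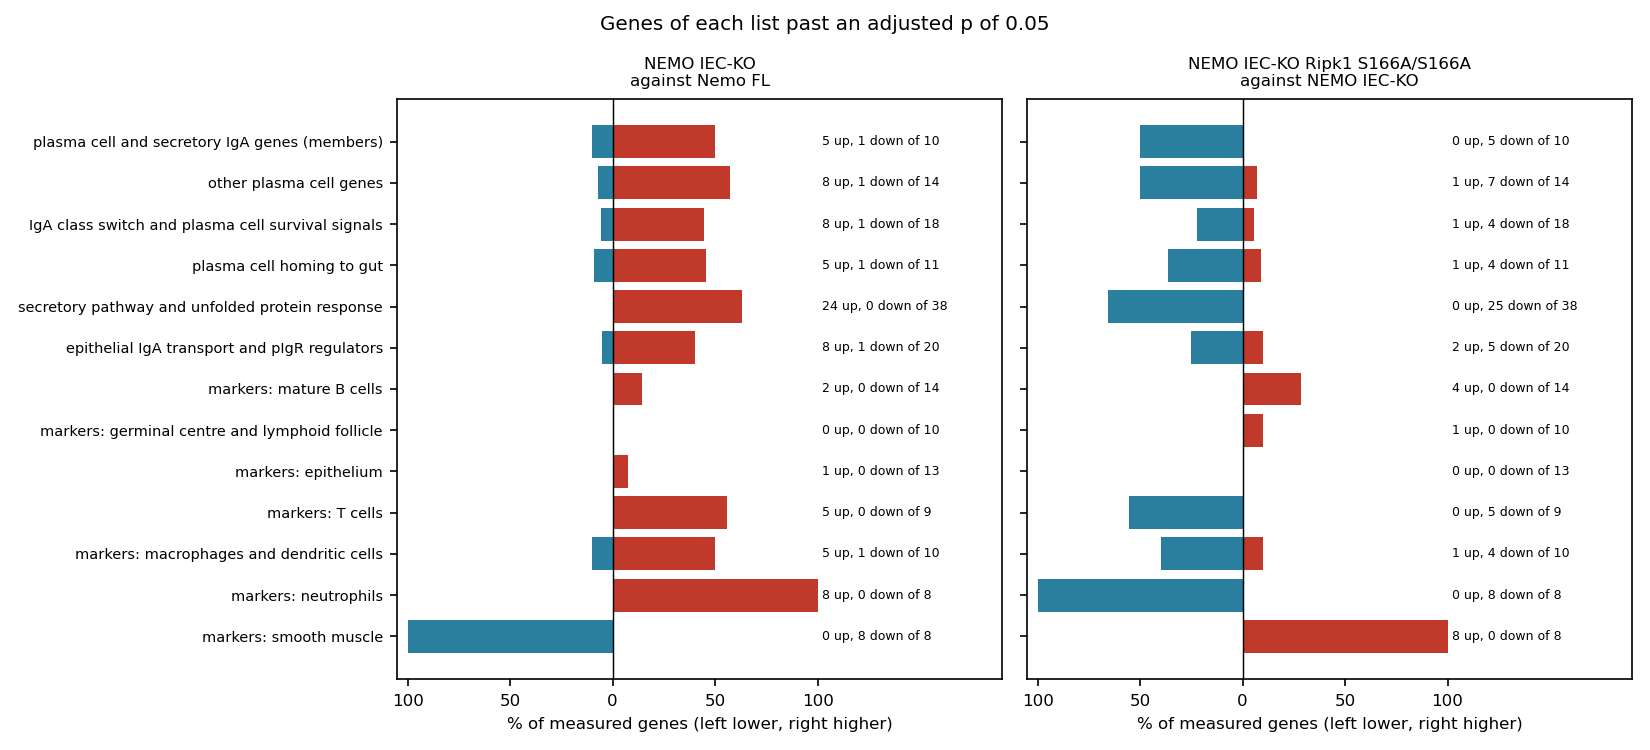
Share of the measured genes of each list (x axis, % of genes, higher to the right in red and lower to the left in blue) past an adjusted p of 0.05 in 2 comparisons, with the counts beside each bar. The secretory pathway list has 24 of 38 genes higher in the comparison with *Nemo* FL mice and 25 of 38 lower in that of S166A with NEMO IEC-KO mice, while B cell markers have 2 and 4 of 14 genes higher.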

How the data were processed

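Total RNA of whole colon, 100 ng per mouse, was hybridised to Clariom S mouse arrays. Each probe set has 1 value per mouse as deposited by the authors, read here as log2 from the range of values, and the labels name Affymetrix Expression Console and Transcriptome Analysis Console for the processing. The sources used here give neither the log base nor how probes were summarised, corrected for background or normalized. The values were used as deposited, since array medians lay between 6.27 and 6.36. An unstated background correction or normalization can compress differences of dim and bright probe sets. The number of arrays limits the precision, and no counts or depths exist for arrays.

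Only the mice of the compared genotypes entered a fit, made with the lmFit and eBayes functions of limma 3.58.1 (R 4.3.3, two-sided), and Benjamini-Hochberg adjustment ran over all 22142 probe sets. Higher, lower and called mean an adjusted p under 0.05, and intervals are 95% intervals. The fit was tested on simulated data. Mice carry the leading number of their titles and were grouped by the titles. Sex was read from *Kdm5d*, *Eif2s3y* and *Uty*.

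The 10 genes and the 13 lists (181 of 198 genes measured) were chosen with earlier results of these data known. Of each list up to 4 called genes with the largest change, or 2 if none was called, could be named (marker lists of other cells are given mostly by counts and levels), with the 5 profiles nearest to *Jchain* and to *Pigr*. *Xbp1*, *Ccl28*, *Ccr10*, *Tnfsf13b*, *Cpeb4*, *Hnf4a*, *Cd79a* and the second value of *Ssr4* fall outside this rule and were named after their values were seen. Immunoglobulin genes were not analysed here, because no named probe set matched their symbols, and the promoter of *Mzb1* was not used here. The alternatives comprised a joint fit of the 3 groups, eBayes with trend and robust, array weights, median centring, quantile normalization, filters at the 25th percentile and the median of the mean, mouse 10 as NEMO IEC-KO, a sex term, no mice 1 and 2, 2 stricter thresholds and the omission of single mice. Fits within females and within males were added after seeing the data.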

Additional observations from a re-analysis of the deposited data

Results flagged for a closer look

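Of 30 groups of 5 mice, 3 held a mouse whose gap to the next mouse took up an unusually large part of the group's range, and chance flags about 1 in 20 groups. All 3 groups were of NEMO IEC-KO mice. The groups of different genes hold the same mice, so they are not independent, and the rate of 1 in 20 is only a rough guide. *Jchain* was 11.47 in mouse 11, against 11.94 to 12.11 in the other 4. *Derl3* was 6.82 in the same mouse, against 7.31 to 7.46 in the other 4. *Eaf2* was 3.42 in mouse 12, against 3.66 to 3.76 in the other 4, beside a median of 3.00 for Y-chromosome genes in females.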

How the results depend on the processing

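Of 579 recomputed values of the 10 genes, 518 kept their direction and their side of the threshold, 23 lost a call, 6 gained one and 32 changed direction, none of the last with a call. For NEMO IEC-KO against *Nemo* FL, the 6 called genes became 0 with mouse 10 counted as NEMO IEC-KO and 4 to 6 with a mouse left out, and the 5628 called probe sets became 1807 with mouse 10 so counted, 3688 in females only, 3296 at an adjusted p under 0.01, 3113 with a fold over 1.5 and 4372 to 5843 with a mouse left out. For NEMO IEC-KO mice with the *Ripk1* S166A/S166A mutation (S166A) set against those without it, the 5 called genes became 2 with mouse 10 so counted, 3 above the median of the mean, where fewer genes were tested, and 4 to 6 with a mouse left out, and the 4258 probe sets became 1434 with mouse 10 so counted, 2438 without mice 1 and 2, 2109 at an adjusted p under 0.01, 2569 with a fold over 1.5 and 3132 to 4210 with a mouse left out. For S166A against *Nemo* FL, no gene of the 10 was called under any alternative, and the 12 probe sets became 21 with 3 groups in 1 fit, 7 with trend and robust settings, 28 with array weights, 4 without mice 1 and 2 and 8 to 43 with a mouse left out (43 without *Nemo* FL mouse 6, 26 without mouse 2 and 21 without mouse 4).

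Directions changed only where the difference was near 0. *Fcrl5* for S166A minus NEMO IEC-KO became 0.15 with a sex term and likewise within males, and 0.08, 0.03 and 0.04 without mouse 5, 12 or 18 (-0.16 without mouse 15). For S166A minus *Nemo* FL, *Derl3* became -0.08 with array weights, -0.12 with mouse 10 as NEMO IEC-KO or left out, -0.00 without mice 1 and 2, and -0.01 and -0.07 without mouse 1 or 3 (0.14 without mouse 5). *Pou2af1* became -0.09 with array weights, -0.13 with mouse 10 as NEMO IEC-KO or left out, and -0.05, -0.15, -0.03 and -0.01 without mouse 1, 3, 4 or 9 (0.18 without mouse 5). *Sdc1* became 0.05 with quantile normalization and 0.04, 0.01, 0.03, 0.02 and 0.04 without mouse 3, 5, 6, 7 or 8. *Eaf2* became -0.06 with quantile normalization and -0.07, -0.00, -0.04 and -0.02 without mouse 4, 6, 8 or 9, and *Irf4* 0.06 without mice 1 and 2, and 0.04 and 0.01 without mouse 2 or 8 (-0.18 without mouse 6). The cause was not tested. Another probe set could not be tried, because each gene has 1, and no sex term was fitted for S166A against *Nemo* FL, where 1 mouse separates sex from genotype. The paper states that its mouse experiments used littermates. The sample titles name no litter, so no paired analysis was made, and the part of litter in these values was not tested.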

Other observations

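*Aldh1a1* showed the largest fall in NEMO IEC-KO relative to *Nemo* FL mice among the genes named for the IgA system, with a mean log2 value of 8.20 in S166A and 6.34 in NEMO IEC-KO mice, against 8.62 in *Nemo* FL mice. Between S166A and *Nemo* FL mice the largest differences among the 18 genes of IgA switching and plasma cell survival were those of *Tnfrsf13c*, the BAFF receptor of B cells (0.70), and *Il21r*, the receptor for IL-21 (0.67), and neither passed the test (adjusted p = 0.414 and 0.287 by limma).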
